A study of Mus musculus with 8 samples.

Results

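The genes described here are 10 regulators of the neuronal microtubule cytoskeleton: doublecortin (Dcx) and its relatives Dclk1 and Dclk2, the LIS1 gene Pafah1b1 with its partners Nde1 and Ndel1, and the stathmins Stmn1, Stmn2, Stmn3 and Stmn4. Their members on the array are all probe sets (groups of probes read as 1 signal) whose annotation names 1 of these genes and no other. This gave 31 of 45101 probe sets and 10 of the 18193 genes named alone by a probe set. The rule reads the annotation and no signal, but the 10 genes were picked with earlier results of these data known. Dclk1 had 9 probe sets, Pafah1b1 5, Dcx 4, Dclk2 3, Nde1 and Stmn4 1 each, and the other 4 genes 2 each. One Dclk2 probe set, 1456025_at, fell among the lowest 30% of the array by mean log2 signal and was not tested. Its 8 signals lay between 2.57 and 16.7, and the other 30 probe sets were tested.

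The arrays measured total RNA of mouse telencephalon from a study of mutants of Dlx1 and Dlx2, the paired homeobox genes that drive GABAergic neuron development in the ventral forebrain. Basal ganglia (BG) and cortex (Ctx) were each taken from -/- and from +/- animals, giving the groups BG -/-, BG +/-, Ctx -/- and Ctx +/-, each with 2 arrays carrying the replicate numbers 2 and 3. The +/- groups carry a mutation too, so every comparison of genotypes is with heterozygotes and not with wild type. The labels used here give no age, strain, sex or pooling. They also do not state that 2 arrays with the same group name stem from different animals. Each p-value therefore rests on the spread between arrays of the same group, pooled over the 4 groups, and this spread may be technical. The source field of the labels reads blood and adrenal medulla, while the description field gives basal ganglia or cortex. The 5 adrenal medulla genes tested summed to 783 to 830 in BG -/-, 740 to 896 in BG +/-, 615 to 628 in Ctx -/- and 622 to 674 in Ctx +/- arrays. Of these, the secretory granule genes Chga and Chgb, which neurons express too, averaged 187 to 445 over the 4 groups, and the catecholamine enzyme genes Th, Dbh and Pnmt averaged 7.20 to 92.2. Neurod6, of cortical glutamatergic neurons, averaged 809 in BG -/- and 542 in BG +/- arrays, and 4528 in Ctx -/- and 4547 in Ctx +/- arrays.

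The products of these genes set how stable the microtubules of newborn neurons are and how motors pull on them. Doublecortin and its kinase relatives bind and stabilise microtubules in migrating neurons and growing axons. LIS1, with NDE1 and NDEL1, regulates the motor dynein, which moves the nucleus in migrating neurons and acts in progenitor mitosis. Stathmins bind free tubulin and favour microtubule disassembly. Mutations of human DCX or of the LIS1 gene cause lissencephaly, in which neurons fail to reach their places in the cortex, and the interneurons that leave the basal ganglia for the cortex in the embryo also use these proteins.

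Because DLX proteins are homeodomain factors, which bind sites with a TAATTA core, the promoter windows of the members were searched for these letters. The windows are the 250 bases before each annotated start, from RefSeq on GRCm38.p6, and 7 of the 10 genes had 9 of them. Stmn1, Stmn2 and Stmn4 had no window and were not searched. TAATTA reads the same on both strands, so 1 search covers both. It was present in the windows of Dcx and in none of the other windows searched for the members, against 4.84% of all 32851 windows of this length. The letters G and C made up 41.6% and 44.8% of the Dcx windows, and 46.8% to 73.2% of the other members' windows. The Dcx window spans chrX:143933220-143933469 on the minus strand, and its match starts 39 bases before the annotated start. A further Dcx window overlaps it and holds the same match. The window is shown 5′ to 3′ with the match in capitals, beside the windows of Dclk1 (chr3:55242114-55242363, plus strand) and Stmn3 (chr2:181314501-181314750, minus strand), genes described below that lack the letters.
Dcx: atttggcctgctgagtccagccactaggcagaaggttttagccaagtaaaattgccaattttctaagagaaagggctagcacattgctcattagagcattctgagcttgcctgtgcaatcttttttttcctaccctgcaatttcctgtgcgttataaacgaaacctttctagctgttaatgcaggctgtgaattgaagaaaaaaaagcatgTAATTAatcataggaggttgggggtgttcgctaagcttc
Dclk1: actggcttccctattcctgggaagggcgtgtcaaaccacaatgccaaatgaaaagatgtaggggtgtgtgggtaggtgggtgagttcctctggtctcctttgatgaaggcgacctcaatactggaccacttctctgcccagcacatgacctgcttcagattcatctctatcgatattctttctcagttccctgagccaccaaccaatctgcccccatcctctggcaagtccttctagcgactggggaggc
Stmn3: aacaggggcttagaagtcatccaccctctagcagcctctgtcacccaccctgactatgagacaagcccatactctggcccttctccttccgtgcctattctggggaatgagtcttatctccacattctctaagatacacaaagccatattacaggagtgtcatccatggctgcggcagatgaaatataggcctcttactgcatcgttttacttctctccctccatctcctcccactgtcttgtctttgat
A match of letters is a description of the sequence and not a binding site. The shorter letters ATTA, on either strand and including those inside TAATTA, occurred 5 times in the Dcx window, 0 times in the Dclk1 window shown, 1 time in the other Dclk1 window (chr3:55461478-55461727, plus strand, not shown) and 1 time in that of Stmn3, and 54.9% of all windows held them.

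Signals are array units on a linear scale, as the authors deposited them. Every array had been brought to the same trimmed mean (150.0), and the median signal ranged from 38.0 to 51.6. Over log2(signal + 16) of the 31526 probe sets tested, pairs of arrays within a group had correlations of 0.971 to 0.983, and pairs from 2 groups had 0.905 to 0.976. Differences below are on this log2(signal + 16) scale, which understates changes of dim probe sets. They come with the standard error (SE) and the adjusted p of limma's moderated test over all 31526 probe sets kept, and a difference is called at an adjusted p under 0.05. Probe sets of 1 gene measure different stretches of its transcripts with different probes. Signals are therefore compared between arrays, apart from the choice of a gene's brightest probe set. The difference of 2 Dcx probe sets given below is likewise compared between arrays.

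The targeted genes followed the labels. Dlx1 was at 3.67 and 15.5 in BG -/- arrays against 1232 and 1237 in BG +/- arrays, and at 2.42 and 1.74 in Ctx -/- arrays against 138 and 137 in Ctx +/- arrays. Dlx2 was at 8.56 and 8.68 in BG -/- arrays and at 358 and 287 in BG +/- arrays. The 4 -/- arrays also differed from the 4 +/- arrays in sex-linked genes. Xist, the RNA of the inactive X chromosome, was between 2340 and 2519 in the -/- arrays and between 34.2 and 67.5 in the +/- arrays. The Y-linked Eif2s3y was between 1.20 and 6.46 in the -/- arrays and between 241 and 448 in the +/- arrays. Uty and Kdm5d, also Y-linked, were at most 12.6 in the -/- arrays and at least 80.3 in the +/- arrays. Genotype and the sex of the tissue therefore cannot be told apart in these 8 arrays, which bears first on Dcx, an X-linked gene.

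In basal ganglia the loss of Dlx1/2 went with higher signals of doublecortin, of several Dclk1 probe sets and of 1 Pafah1b1 probe set, and with a lower signal of 1 Stmn1 probe set. Of the 30 probe sets tested, 7 passed, 6 higher and 1 lower in BG -/-. Over all probe sets tested in this comparison, 9.74% passed, 7.5% higher and 2.23% lower. Most of the 30 were bright, and of the brightest 10% of probe sets tested 7.07% were called higher and 6.22% lower. Of the next 10% by brightness, 11.3% were called higher and 4.03% lower. The arrays of the 2 genotypes did not overlap in 28 of the 30, against 60% of all probe sets, and 14 of the 30 had an unadjusted p under 0.05, against 28.2% of all. Their median difference was 0.20, against 0.010 over all probe sets tested. Counted by gene, with each gene represented by its brightest probe set, 1 of the 10 passed (Dcx), against 7.82% of all genes, while 4 genes had at least 1 probe set that passed. These 7 calls depend on single arrays. Without either BG -/- array 0 of the 30 passed in limma, without either BG +/- array only Dclk1 1446190_at passed, without either Ctx -/- array 3 passed (2 of Dcx and Dclk1 1446190_at), and without either Ctx +/- array 8 passed.

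**Figure D1:**
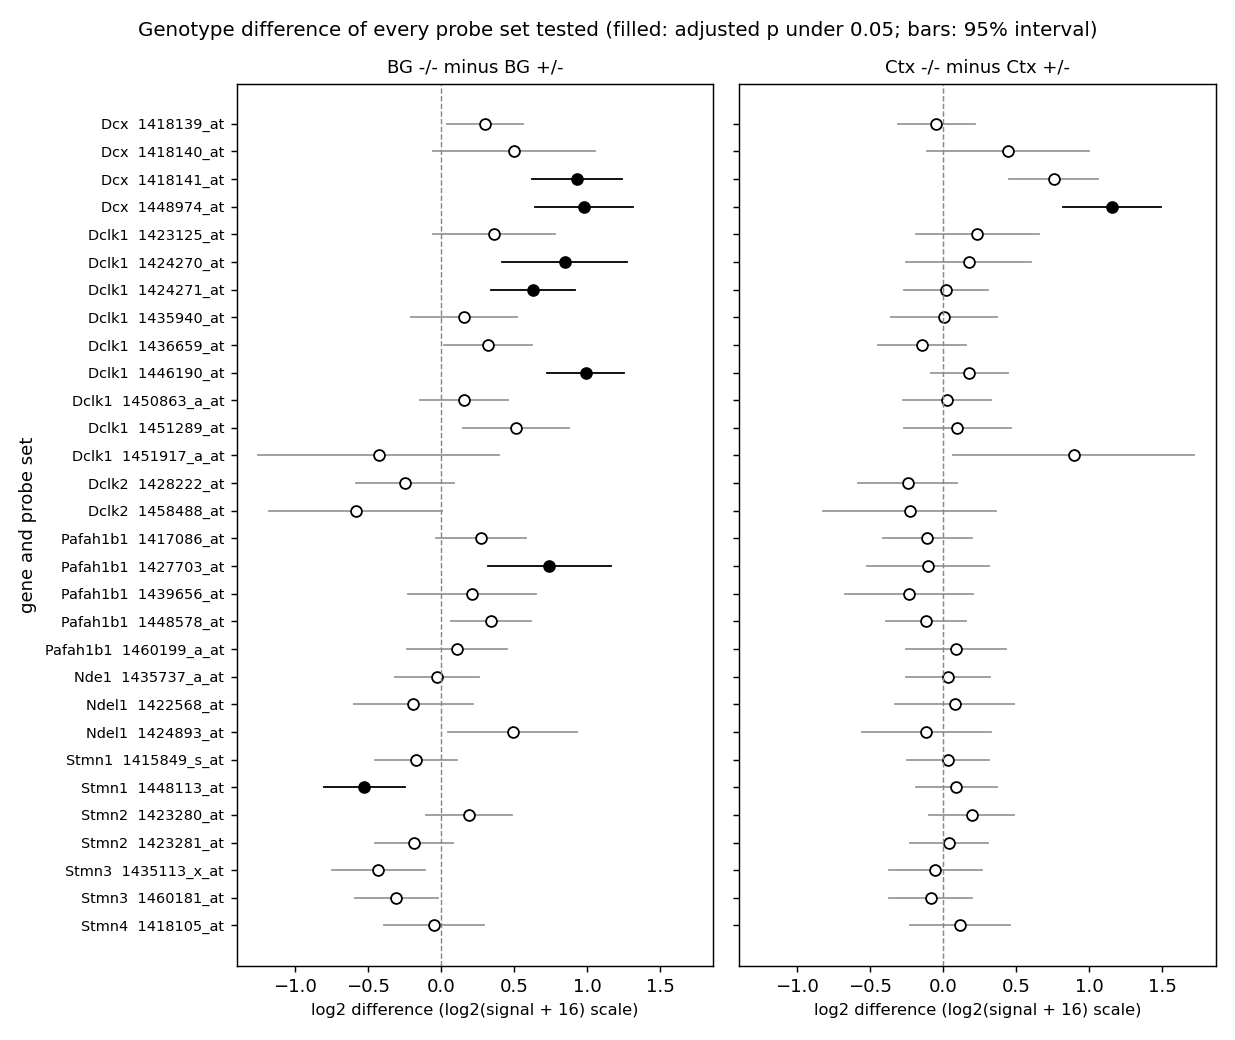
Difference between -/- and +/- arrays for each probe set tested, in basal ganglia (left) and in cortex (right), on the log2(signal + 16) scale, with bars for the 95% interval and filled points for an adjusted p under 0.05. The filled points are 7 in basal ganglia, of which 6 lie right of 0, and 1 in cortex, Dcx 1448974_at at 1.16.

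Doublecortin, the microtubule-stabilising protein of migrating neurons, was measured by 4 probe sets that differed in their genotype differences. Probe set 1418141_at, the brightest by mean log2 signal, read 4993 and 4617 in BG -/- arrays against 2599 and 2426 in BG +/- arrays, and 5466 and 5411 in Ctx -/- arrays against 3462 and 2985 in Ctx +/- arrays. Probe set 1448974_at read 720 and 622 in BG -/- arrays against 313 and 352 in BG +/- arrays, and 1002 and 871 in Ctx -/- arrays against 418 and 401 in Ctx +/- arrays. In both, each -/- array was above each +/- array, also across the regions. The difference between BG -/- and BG +/- was 0.93 ± 0.13 for 1418141_at (SE, adjusted p = 0.0115) and 0.98 ± 0.14 for 1448974_at (SE, adjusted p = 0.0127). Both signals rose in BG -/-. In cortex 1448974_at rose by 1.16 ± 0.14 (SE, adjusted p = 0.0436), and 1418141_at differed by 0.76 with a 95% interval of 0.45 to 1.06 (adjusted p = 0.131).

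The other 2 Dcx probe sets did not pass in either region as deposited, and 1 of them, 1418139_at, passed in BG after quantile normalization, at 0.48 (adjusted p = 0.0467 in limma, and 0.0467 to 0.386 over the alternatives). Probe set 1418139_at read 3057 and 3152 in BG -/- arrays against 2534 and 2497 in BG +/- arrays, but 3765 and 3565 in Ctx -/- arrays against 3810 and 3771 in Ctx +/- arrays. Its BG arrays did not overlap between genotypes, and in cortex both -/- arrays were just below both +/- arrays. The difference was 0.30 in BG, with an interval of 0.04 to 0.56, and -0.05 in Ctx, with an interval of -0.31 to 0.21. The dim 1418140_at read 185 and 163 in BG -/- arrays against 92.5 and 150 in BG +/- arrays, and 330 and 273 in Ctx -/- arrays against 192 and 244 in Ctx +/- arrays. Its genotypes did not overlap in either region, at differences of 0.50 ± 0.23 and 0.44 ± 0.23 (SE).

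The disagreement between Dcx probe sets was larger in cortex than for most genes. The genotype differences of the 4 spanned 1.21 in Ctx, a range exceeded by 3.55% of the 1353 genes with 4 or more probe sets tested, whose median range was 0.51. In BG they spanned 0.68, which 42.3% of those genes exceeded. The log2 difference of 1418141_at minus 1418139_at, the 2 brightest Dcx probe sets and a pair picked after its values were seen, averaged 0.63 in BG -/- and -0.0026 in BG +/- arrays, and 0.57 in Ctx -/- and -0.24 in Ctx +/- arrays. It was at least 0.54 in each -/- array and at most 0.04 in each +/- array. Which stretch of the transcript each probe set measures is not analysed here. The mean of all 4 probe sets differed by 0.68 ± 0.11 in BG (SE, adjusted p = 0.0215 in limma over 13627 genes) and by 0.58 ± 0.11 in Ctx (SE, adjusted p = 0.178).

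**Figure D2:**
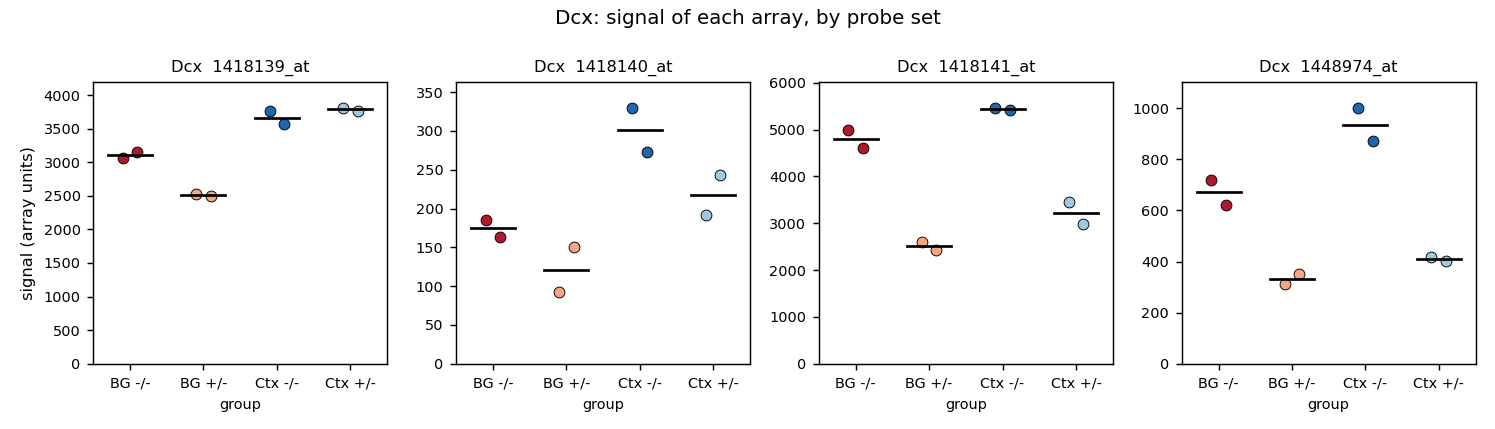
Signal of each array for the 4 Dcx probe sets, in array units on a linear axis from 0, with points for the arrays and a line for the mean of 2. The -/- arrays stand above the +/- arrays of both regions in 1418141_at and 1448974_at, while in 1418139_at the cortex arrays of both genotypes lie between 3565 and 3810.

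Dcx lies on the X chromosome, whose genes were called higher in BG -/- more often than autosomal genes. Of 444 X-linked genes tested, with Dcx and without Xist, 12.8% were called higher in BG -/-, against 4.44% of 13139 autosomal genes, and their median differences were 0.06 and -0.08. A larger BG difference than that of Dcx was measured for 19 of these X-linked genes and for 220 autosomal genes. In cortex 1 of them was called higher, Mid1, and 3 X-linked and 63 autosomal genes had larger differences than Dcx. The 5 genes whose signal was most like that of Dcx over the 8 arrays, by Pearson's r of log2(signal + 16), were Kdm6a (0.980), Birc6 (0.968), Xist (0.955), Mid1 (0.952) and Ddx3x (0.952). Of these 5, Kdm6a, Xist, Mid1 and Ddx3x are X-linked and Birc6 lies on chromosome 17. The 8 arrays form 4 groups of 2, so such an r mostly compares 4 group means, and it is given as a description. Kdm6a, a histone demethylase gene known to escape X inactivation, differed by 1.03 in BG (adjusted p = 0.0181 in limma) and by 0.64 in Ctx (adjusted p = 0.310).

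Dclk1 encodes a doublecortin-like protein joined to a kinase domain, and its gene makes several isoforms. Probe set 1446190_at read 439 and 458 in BG -/- arrays against 222 and 214 in BG +/- arrays, and 432 and 417 in Ctx -/- arrays against 369 and 378 in Ctx +/- arrays. BG +/- stood apart as the low group, and the other 3 groups lay between 369 and 458. The rise in BG -/- was 0.99 ± 0.11 (SE, adjusted p = 0.00703), and in Ctx the difference was 0.18, with an interval of -0.09 to 0.44. Probe set 1424270_at showed another order, with 360 and 297 in BG -/- arrays against 172 and 177 in BG +/- arrays, and 144 and 179 in Ctx -/- arrays against 161 and 122 in Ctx +/- arrays. Here BG -/- was the high group, and the other 6 arrays lay between 122 and 179. Its rise in BG -/- was 0.85 ± 0.18 (SE, adjusted p = 0.0343).

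Probe set 1424271_at of Dclk1 followed the same order, with 637 and 574 in BG -/- arrays against 366 and 403 in BG +/- arrays, and with 388 and 384 in Ctx -/- arrays against 386 and 376 in Ctx +/- arrays. The BG -/- arrays were above the other 6, and the rise over BG +/- was 0.63 ± 0.12 (SE, adjusted p = 0.0258). The next closest, 1451289_at, read 484 and 477 in BG -/- arrays against 344 and 320 in BG +/- arrays, a difference of 0.51 with an interval of 0.15 to 0.88 (adjusted p = 0.0847). The brightest probe set, 1435940_at, read 1124 and 1168 in BG -/- arrays against 1062 and 988 in BG +/- arrays and did not pass, at 0.16 ± 0.15 (SE). Of the other 4, 1436659_at, 1423125_at and 1450863_a_at differed by 0.32, 0.36 and 0.16 in BG. The dim 1451917_a_at differed by -0.43, with single BG +/- arrays at 49.3 and 111 around the BG -/- arrays at 53.4 and 50.3. In cortex 0 of the 9 passed in limma and 1, 1451917_a_at, had an unadjusted p under 0.05. The range of the 9 BG differences was 1.42, from the dim 1451917_a_at at -0.43 to 1446190_at at 0.99. It was exceeded by 3.99% of the genes with 4 or more probe sets. A range widens with the number of probe sets, which was not matched, so this share does not show how unusual Dclk1 is. The mean of the 9 differences was 0.40 ± 0.10 (SE, adjusted p = 0.0541).

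**Figure D3:**
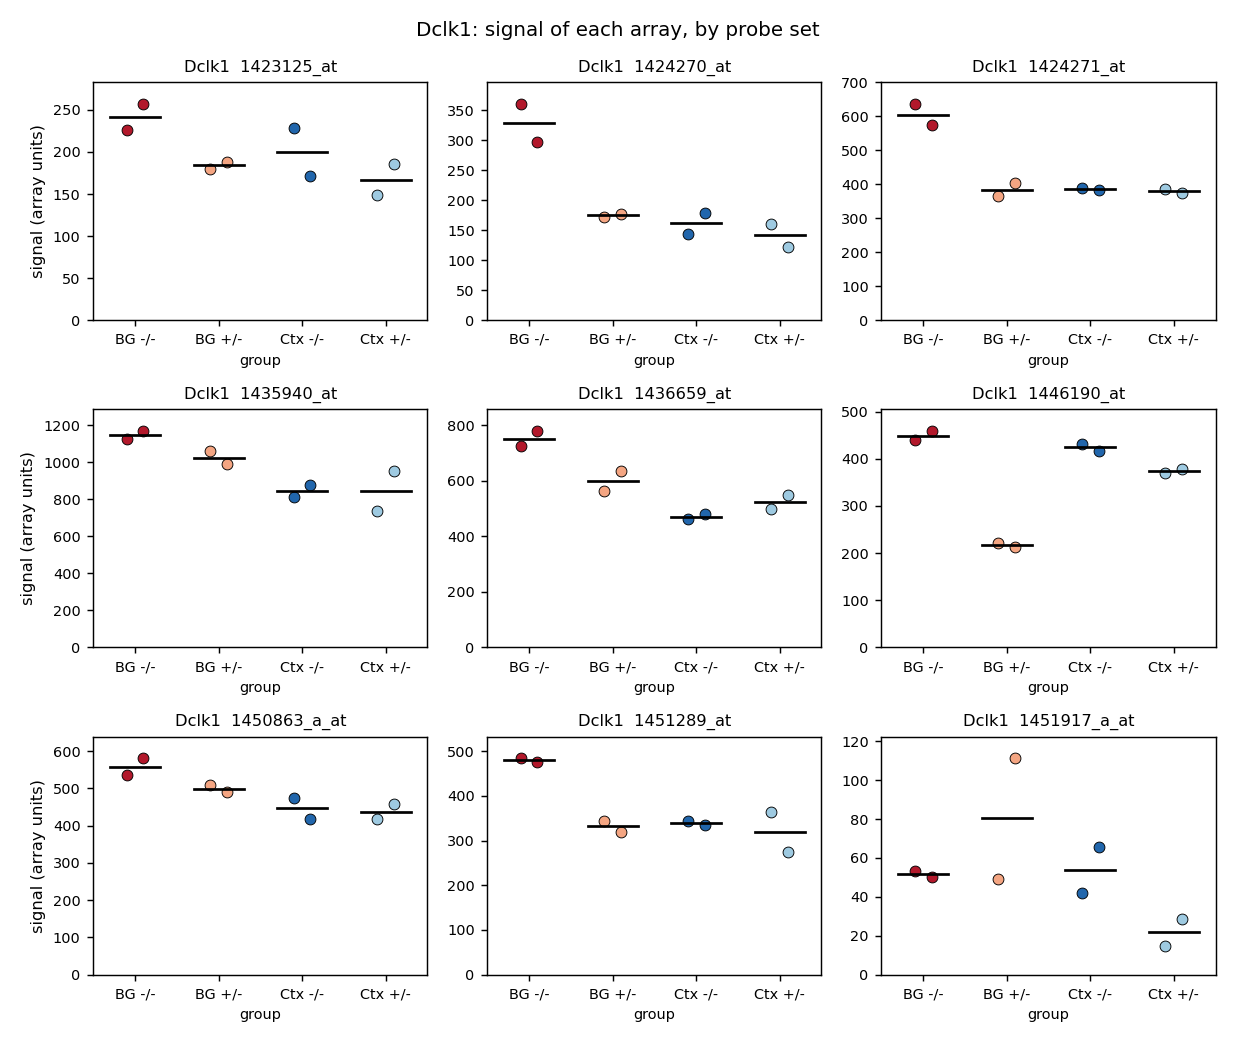
Signal of each array for the 9 Dclk1 probe sets, in array units on linear axes from 0, with points for the arrays and a line for the mean of 2. BG -/- arrays are the high group in 1424270_at, 1424271_at and 1451289_at, and BG +/- arrays are the low group in 1446190_at.

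Dclk2, the other doublecortin-like kinase gene, did not pass in either region. Its probe set 1428222_at read 307 and 303 in BG -/- arrays against 386 and 345 in BG +/- arrays, and 216 and 176 in Ctx -/- arrays against 246 and 223 in Ctx +/- arrays. The -/- arrays were the lower ones in both regions, without overlap. The differences were -0.25 in BG (interval -0.59 to 0.09) and -0.24 in Ctx (interval -0.58 to 0.09). The second tested probe set, 1458488_at, was dim, with 29.5 and 17.8 in BG -/- arrays against 40.6 and 45.2 in BG +/- arrays, at -0.58 ± 0.25 (SE, adjusted p = 0.181).

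Pafah1b1 encodes LIS1, the dynein regulator. Its 5 probe sets were higher in BG -/- by 0.11 to 0.74, and 1 passed. That one, 1427703_at, read 105 and 88.0 in BG -/- arrays against 59.1 and 43.8 in BG +/- arrays, and 92.0 and 93.7 in Ctx -/- arrays against 115 and 88.3 in Ctx +/- arrays. BG +/- was the low group and the other 3 groups overlapped, and the rise in BG -/- was 0.74 ± 0.18 (SE, adjusted p = 0.0470). The brightest, 1448578_at, read 963 and 922 in BG -/- arrays against 769 and 709 in BG +/- arrays, and 782 and 761 in Ctx -/- arrays against 857 and 821 in Ctx +/- arrays. The genotypes did not overlap in either region, with -/- above +/- in BG and below it in Ctx, at 0.35 (interval 0.07 to 0.62, adjusted p = 0.108) and -0.12 (interval -0.39 to 0.15, adjusted p = 0.780). The 5 Ctx differences ran from -0.24 to 0.09.

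The genes most like Pafah1b1 over the 8 arrays, through 1448578_at, were Cfap69 (r = 0.974), Nrg3 (0.968), Bbs4 (0.963), Ahi1 (0.950) and Itpr3 (0.946). Of these, Cfap69 was higher in BG -/- by 0.88 (adjusted p = 0.0291 in limma) and passed in 10 of 15 alternatives. Itpr3 was higher by 1.11 (adjusted p = 0.0156) and passed in 9 of 14. Bbs4 was higher by 0.59 (adjusted p = 0.0367) and passed in 6 of 15. Nrg3, which encodes a neuregulin, was higher by 0.59 (adjusted p = 0.0327) and passed in 5 of 15. Ahi1 did not pass, at 0.55 (adjusted p = 0.0594). In Ctx none of these genes passed, at -0.62 to -0.06, with Nrg3 at -0.23 (adjusted p = 0.601).

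Nde1 and Ndel1 encode the paired coiled-coil proteins that tie LIS1 to dynein, Nde1 mainly in dividing progenitors. Nde1 read 185 and 195 in BG -/- arrays against 202 and 186 in BG +/- arrays, and 296 and 309 in Ctx -/- arrays against 311 and 279 in Ctx +/- arrays. The genotypes overlapped in both regions, with differences of -0.03 (interval -0.32 to 0.26) in BG and 0.03 (interval -0.25 to 0.32) in Ctx. Ndel1 1422568_at read 623 and 688 in BG -/- arrays against 739 and 758 in BG +/- arrays, and 849 and 613 in Ctx -/- arrays against 705 and 661 in Ctx +/- arrays, at -0.19 ± 0.17 in BG and 0.08 ± 0.17 in Ctx (SE). Its dimmer 1424893_at went the other way in BG, with 150 and 132 in BG -/- arrays against 109 and 83.7 in BG +/- arrays. That difference was 0.49 with an interval of 0.05 to 0.93 (adjusted p = 0.144), so the Ndel1 probe sets had opposite signs and neither passed.

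The stathmins, which sequester tubulin, were below 0 in BG at 6 of 7 probe sets, but this direction depended on the scaling, since after quantile normalization 3 of 7 were below 0 and none passed. With each array centred on its median, 6 of 7 were below 0, with a median of -0.29, and Stmn1 1448113_at passed at -0.62. Centring also moved the median BG difference of all probe sets to -0.09. The stathmin differences ran from -0.52 to 0.19 with a median of -0.19 as deposited and 0.09 after quantile normalization, and 1 of 7 passed as deposited, lower. All 7 were among the brightest 10% of the probe sets tested, where the median BG difference of all probe sets was -0.18, and where 6.22% were called lower and 7.07% higher. Stmn1, the stathmin of progenitors and young neurons, read 3262 and 3141 at 1448113_at in BG -/- arrays against 4853 and 4380 in BG +/- arrays, and 2288 and 2232 in Ctx -/- arrays against 2167 and 2080 in Ctx +/- arrays. BG +/- was the highest group and BG -/- lay between it and both Ctx groups, without overlap. The signal fell in BG -/- by 0.52 ± 0.12 on the log2 scale (SE, adjusted p = 0.0396), and differed by -0.27 after quantile normalization, without passing. The brighter Stmn1 probe set, 1415849_s_at, read 12077 and 10840 in BG -/- arrays against 12994 and 12769 in BG +/- arrays, a difference of -0.17 with an interval of -0.45 to 0.11.

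Stmn3, a membrane-bound neuronal stathmin, did not pass in BG, although both probe sets separated the genotypes. Probe set 1435113_x_at read 5564 and 5575 in BG -/- arrays against 7511 and 7489 in BG +/- arrays, and 3574 and 4120 in Ctx -/- arrays against 3700 and 4290 in Ctx +/- arrays. The 2 arrays of each BG group lay close together and far from the other genotype, while the Ctx genotypes overlapped. The BG difference was -0.43 with an interval of -0.75 to -0.11 (adjusted p = 0.0942). At 1460181_at, with 2675 and 2695 in BG -/- arrays against 3447 and 3200 in BG +/- arrays, it was -0.31 with an interval of -0.59 to -0.02 (adjusted p = 0.153).

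Stmn2, also called SCG10, is a stathmin of growing axons, and its 2 probe sets had opposite signs in BG. Probe set 1423281_at read 4618 and 4589 in BG -/- arrays against 5310 and 5181 in BG +/- arrays, and 4118 and 4165 in Ctx -/- arrays against 3883 and 4186 in Ctx +/- arrays. Probe set 1423280_at read 3409 and 3331 in BG -/- arrays against 2882 and 3022 in BG +/- arrays, and 3275 and 3056 in Ctx -/- arrays against 2596 and 2944 in Ctx +/- arrays. The BG arrays did not overlap in either probe set, yet the differences were -0.19 and 0.19, and neither passed (adjusted p = 0.325 and 0.362). The genes most like Stmn2 through 1423281_at were Itm2a (r = 0.991), Uqcr10 (0.987), Pqbp1 (0.987), Lrtm2 (0.986) and Trappc2l (0.986). Stmn4 read 2369 and 2302 in BG -/- arrays against 2460 and 2370 in BG +/- arrays, and 1148 and 1120 in Ctx -/- arrays against 929 and 1180 in Ctx +/- arrays. Its genotypes lay close in BG and overlapped in Ctx, at -0.05 (interval -0.39 to 0.29) and 0.11 (interval -0.23 to 0.45).

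**Figure D4:**
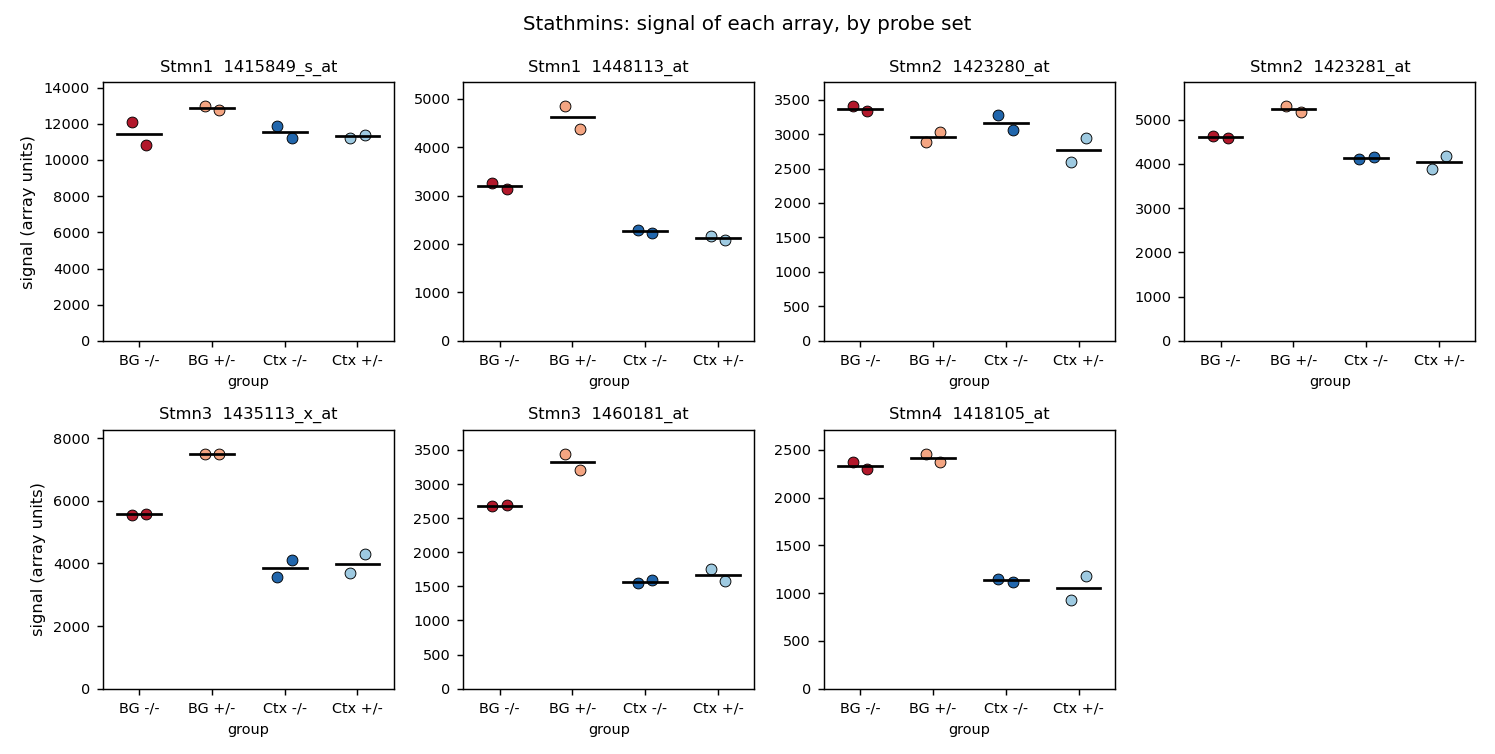
Signal of each array for the 7 stathmin probe sets, in array units on linear axes from 0, with points for the arrays and a line for the mean of 2. Stmn3 and Stmn4 arrays from BG lie above all Ctx arrays in both genotypes, and Stmn1 1448113_at is highest in BG +/-, at 4853 and 4380.

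In cortex 1 of the 30 probe sets passed, Dcx 1448974_at, higher in Ctx -/-, against 0.225% of all probe sets in either direction and 0.0476% higher, and 3 had an unadjusted p under 0.05, against 9.67% of all. The genotypes did not overlap in 12 of the 30, against 39.4%. The call was lost without any 1 of the 8 arrays, and 0 of the 30 then passed in limma. The median difference of the 30 was 0.033, against -0.014 over all probe sets tested.

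Whether the genotype difference itself depended on the region was tested as the BG difference minus the Ctx difference. In limma 0 of the 30 passed, against 0.574% of all probe sets, and 8 of the 30 had an unadjusted p under 0.05, against 17.7% of all. The closest was Dclk1 1446190_at, whose difference was larger in BG by 0.81 (interval 0.44 to 1.19, adjusted p = 0.0783). Stmn1 1448113_at differed by -0.61 (interval -1.01 to -0.22, adjusted p = 0.141), and Pafah1b1 1448578_at by 0.46 (interval 0.08 to 0.85, adjusted p = 0.221). For Dcx the 4 values ran from -0.18 to 0.35, and each of their intervals included 0. So no member was shown to respond differently in the 2 regions, although more of them passed in BG.

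Between the regions, Stmn3 and Stmn4 were higher and Nde1 was lower in BG than in Ctx, in both genotypes. Dclk2 was also higher in BG as deposited, a call lost in both genotypes when each array was centred on its median. Between BG -/- and Ctx -/- 9 of the 30 probe sets passed, 8 higher and 1 lower in BG, against 17.2% of all probe sets, of which 10.7% were higher and 6.59% lower. Between BG +/- and Ctx +/- 10 of the 30 passed, 6 higher and 4 lower, against 23.8%, of which 11.1% were higher and 12.8% lower. Arrays did not overlap in 22 of the 30 in -/-, against 67.9% of all, and in 25 in +/-, against 62.5%. An unadjusted p under 0.05 was reached by 16 of the 30 in -/-, against 34.6% of all, and by 14 in +/-, against 38.6%. By gene, 4 of 10 passed in each genotype, against 18.7% of all genes in -/- and 24.8% in +/-. In each genotype these were Dclk2, Stmn3 and Stmn4, higher in BG, and Nde1, lower in BG. The 2 genotypes share no array, but all 8 arrays gave 1 estimate of the spread, so their tests are not independent. When only the arrays compared were fitted, Dclk2 passed in neither genotype and Nde1 passed in -/- only. Stmn4 and Stmn3 1460181_at then passed in both, and Stmn3 1435113_x_at in +/- only.

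Stmn4, a brain-specific stathmin, was higher in BG by 1.03 ± 0.14 in -/- (SE, adjusted p = 0.00558) and by 1.19 ± 0.14 in +/- (SE, adjusted p = 0.00264). Every BG array read at least 2302 and every Ctx array at most 1180. For Stmn3 1460181_at the BG signals given above stood against 1542 and 1593 in Ctx -/- arrays and 1753 and 1580 in Ctx +/- arrays. BG was higher by 0.77 ± 0.12 in -/- (SE, adjusted p = 0.00821) and by 0.99 ± 0.12 in +/- (SE, adjusted p = 0.00264), and 1435113_x_at passed in both genotypes as well, at 0.54 and 0.91. Stmn1 1448113_at was higher in BG by 0.50 in -/- (adjusted p = 0.0317) and by 1.11 in +/- (adjusted p = 0.00174), while the brighter Stmn1 probe set differed by -0.01 and 0.19 without passing. Neither Stmn2 probe set passed, at 0.09 to 0.38.

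Dclk2 1428222_at was higher in BG by 0.60 ± 0.14 in -/- (SE, adjusted p = 0.0315) and by 0.61 ± 0.14 in +/- (SE, adjusted p = 0.0246). Nde1 was lower in BG, by differences of -0.63 ± 0.12 in -/- (SE, adjusted p = 0.0170) and -0.57 ± 0.12 in +/- (SE, adjusted p = 0.0185), and each BG array was below each Ctx array. For Dcx the region difference was below 0 in each probe set and genotype, from -0.79 to -0.18, and 1418139_at passed in +/- at -0.59 ± 0.11 (SE, adjusted p = 0.0120). The brightest Dcx probe set put the groups in the order Ctx -/-, BG -/-, Ctx +/- and BG +/-, and the neighbours tested, the 2 regions within a genotype, did not pass (adjusted p = 0.364 in -/- and 0.0902 in +/-).

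For Dclk1 and Pafah1b1 the region differences varied between probe sets, and those that passed are given by genotype. Whether a region difference changed with the genotype is the same test as the BG difference minus the Ctx difference. As reported, none of their probe sets passed that test. In -/- 3 Dclk1 probe sets passed as higher in BG, 1424270_at at 0.96, 1436659_at at 0.65 and 1424271_at at 0.63. In +/- 1446190_at was lower in BG by a difference of -0.74 ± 0.11 (SE, adjusted p = 0.00564) and the dim 1451917_a_at was higher at 1.30 ± 0.35 (SE, adjusted p = 0.0376). Pafah1b1 1427703_at was lower in BG in +/- at -0.80 ± 0.18 (SE, adjusted p = 0.0202) and differed by 0.04 in -/-. Of all these region differences, those of Stmn4 in both genotypes, and those of both Stmn3 probe sets, Stmn1 1448113_at and Dclk1 1446190_at in +/-, passed under all 16 alternative settings.

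Centring each array on its median moved the median of all region differences from 0.08 to -0.21 in -/- and from 0.06 to -0.06 in +/-. The calls of all probe sets in -/- were then 1937 higher of 7321, against 3361 higher of 5438 without centring, and in +/- 2234 of 7063, against 3489 of 7518. Among the members, 3 were higher and 5 lower in -/- under centring: Dclk1 1424270_at, Stmn3 1460181_at and Stmn4 1418105_at higher, Nde1 and all 4 Dcx probe sets lower. In +/- 4 were higher and 7 lower. Relative to the median of the array, Stmn4 was higher in BG -/- by 0.75 and still passed. Dclk2 1428222_at no longer passed in either genotype, at 0.32 in -/- and 0.49 in +/-. In -/- Stmn1 1448113_at, Stmn3 1435113_x_at, Dclk1 1424271_at and Dclk1 1436659_at also no longer passed, at 0.22, 0.25, 0.34 and 0.37. The 3 Stmn1 and Stmn2 probe sets near 0 turned to -0.30 to -0.13. Single arrays also decided calls between the regions. In -/- Stmn4 alone passed without BG -/- replicate 2 or without Ctx -/- replicate 2, 2 probe sets passed without BG -/- replicate 3 and 3 without Ctx -/- replicate 3. In +/- 6 passed without BG +/- replicate 3, and 7 to 9 without any 1 other array.

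**Figure D5:**
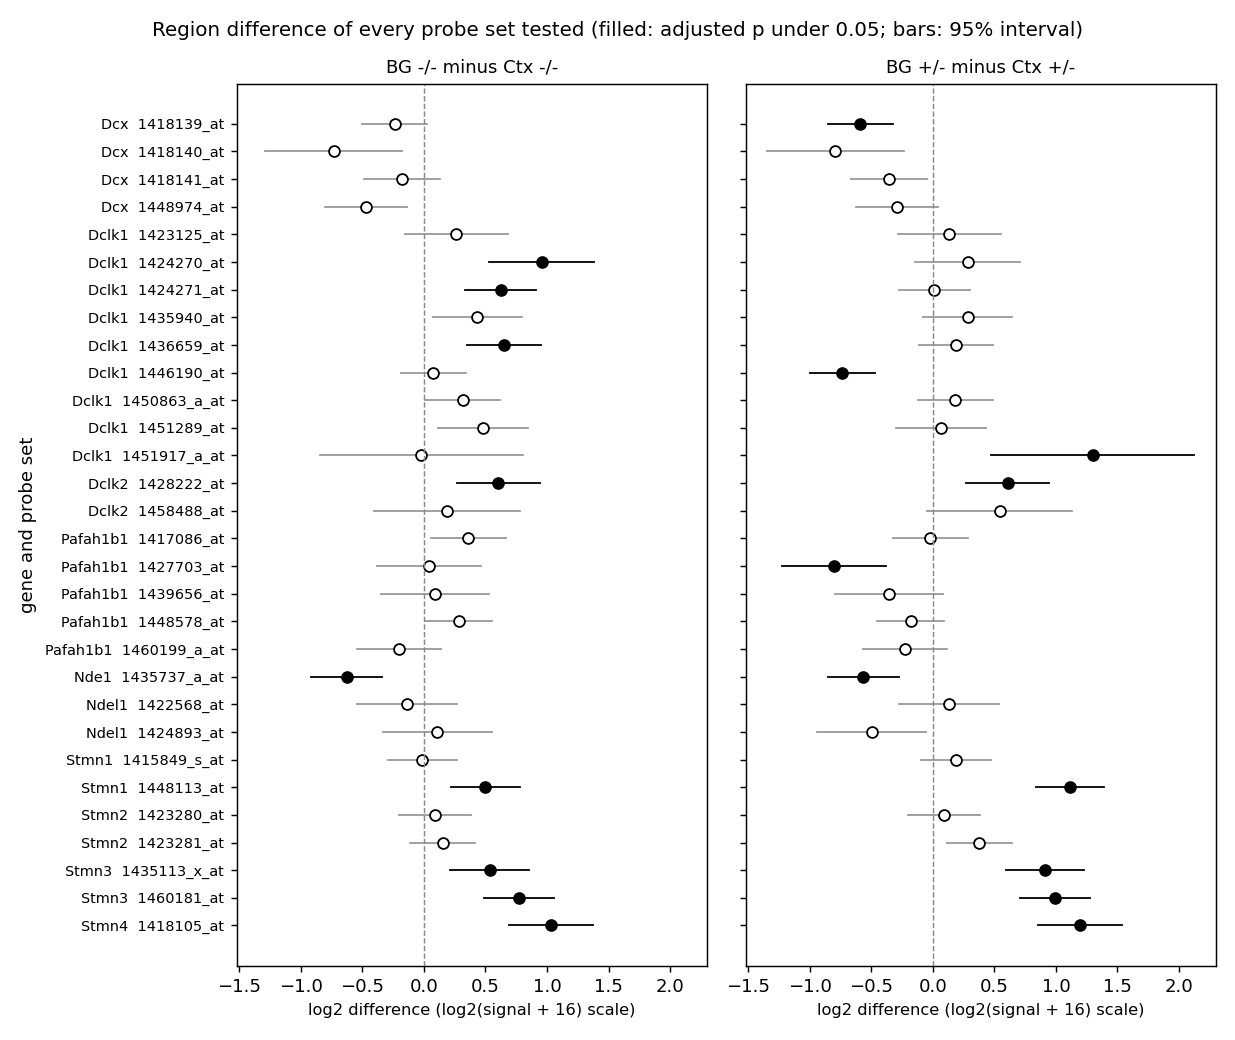
Difference between BG and Ctx arrays for each probe set tested, in -/- (left) and in +/- (right), on the log2(signal + 16) scale, with bars for the 95% interval and filled points for an adjusted p under 0.05. The filled points are 9 in -/- and 10 in +/-, with Stmn4 at 1.03 and 1.19 and Nde1 at -0.63 and -0.57.

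Of other genes of the microtubule pathway, 3 passed between the genotypes in BG, where 7.82% of all genes passed and the median over all genes was -0.08. Of 12 tubulins tested 1 was lower, the centrosomal Tubg1 at -0.62 ± 0.13 (SE, adjusted p = 0.0299), 4 had an unadjusted p under 0.05, and the list's median was -0.28. Of 16 structural microtubule-associated and end-binding protein genes 1 was higher, Clasp2, which stabilises microtubule plus ends, at 0.82 ± 0.11 (SE, adjusted p = 0.0109), 5 had an unadjusted p under 0.05, and the median was 0.15. Of 16 dynein and dynactin subunit genes 1 was lower, Dctn3 at -0.53 ± 0.11 (SE, adjusted p = 0.0347), 7 had an unadjusted p under 0.05, and the median was -0.29. The summed signal of this list was 22174 to 22916 in BG -/- arrays and 28025 to 28104 in BG +/- arrays. In limma 0 of 5 collapsin response mediator protein genes and 0 of 14 partner and kinase genes passed, with 3 and 5 at an unadjusted p under 0.05 and medians of -0.37 and -0.12. The calls depend on the settings, since Clasp2 passed in 11, Tubg1 in 7 and Dctn3 in 5 of 15 alternatives chosen after the data were seen. In cortex 0 genes of these 5 lists passed in limma, with at most 1 per list at an unadjusted p under 0.05, and their medians lay between -0.15 and 0.18, against -0.03 over all genes.

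Markers of cell types were measured beside these differences, since in pieces of tissue fewer cells of a type and less RNA per cell cannot be told apart. Of 12 immature neuron genes 2 were higher in BG -/-, Snap25 at 0.81 and Elavl4 at 0.68, and the summed signal of the list was 13886 to 14643 in BG -/- arrays and 14443 to 14898 in BG +/- arrays. Of 12 progenitor genes 1 was higher, Top2a at 0.64, and 1 lower, Cdk1 at -0.87, with a sum of 25286 to 26516 in BG -/- arrays and 28836 to 29280 in BG +/- arrays. These calls held in 11 of 15 such alternatives for Snap25 and Cdk1 and in 8 for Elavl4 and Top2a. Of 7 endothelial and mural cell genes only Rgs5 was called, higher at 0.97, and the list's median was 0.16. Of 5 choroid plexus genes only Otx2 was called, higher at 1.35, with mean signals of 83.3 and 24.1. That call held in 7 of 14 alternatives, and the list's median was -0.17. Choroid plexus genes summed to 186 to 203 in BG -/- arrays and to 169 to 188 in BG +/- arrays. Of 4 red blood cell genes tested only Hbb-y was called, lower at -0.98, and the list's median was -0.52. Red blood cell genes summed to 3118 to 3265 in BG -/- arrays and to 5951 to 6256 in BG +/- arrays. These sums came mainly from Hbb-y, with mean signals of 2851 and 5648. Choroid plexus genes summed to 31.2 to 87.3 in Ctx -/- arrays and to 12060 to 13954 in Ctx +/- arrays, mainly through Ttr, which is near 0 in Ctx -/-, and Kcne2 was lower there too, at -2.73. Marker lists also differed between the regions. In +/- 5 of 8 microglia and 3 of 4 red blood cell genes were higher in BG, against 1 of 8 and 3 of 4 in -/-. Of 12 immature neuron genes 3 were higher and 6 lower in BG in +/-, and 3 and 5 in -/-. Of 12 progenitor genes 4 were higher and 5 lower in +/-, and 1 and 1 in -/-. The part of these marker differences in the members' values was not tested.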

How the data were processed

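The deposited values are intensity values, 1 per probe set and array on a linear scale, which the authors had scaled so that the 2% trimmed mean was the same on every array (tested on the files). Which software the authors used is not given in the sources used here, and no detection calls entered. Genes were taken from the platform annotation, and chromosomes and promoter windows from RefSeq tables of GRCm38.p6. The 64 control probe sets were left out, signals were transformed as log2(signal + 16), and the lowest 30% by mean were left out, which kept 31526 probe sets for 13627 genes. In limma 3.58.1 under R 4.3.3, 4 group means were fitted to all 8 arrays with lmFit and eBayes (4 residual and 2.76 prior degrees of freedom), with two-sided tests and Benjamini-Hochberg adjustment over all probe sets kept. The fit was tested on simulated data. The number of arrays limits the precision. All member probe sets are named, and of the pathway and cell type lists the genes past the threshold in a genotype comparison. The members and lists were chosen with earlier results of these data known. Alternatives changed the offset, the filter, the scaling, the arrays fitted, the probe sets per gene and the replicate block, or left out single arrays. Same-numbered arrays of different groups did not deviate together (r from -0.026 to 0.022), so the replicate numbers were not used as pairs.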

Additional observations from a re-analysis of the deposited data

How the results depend on the processing

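With 2 arrays per group, most calls depend on the settings. The member count in BG, 7 as reported, was 4 with an offset of 1, 3 with no filter, 4 with the replicate block and 3 when only the BG arrays were fitted, and 0 to 8 when 1 array was left out. It was 6 with quantile normalization, where Dcx 1418139_at was gained, and 5 with centring. The count in Ctx, 1 as reported, was 2 with an offset of 64 and 0 with an offset of 1, no filter, quantile normalization, the replicate block or only the Ctx arrays fitted, and 0 when any 1 array was left out. The test of the difference between regions, 0 as reported, gave 1 call (Dclk1 1446190_at) with an offset of 64 or with the lowest 50% left out, and 0 without any 1 array. Between regions the count in -/-, 9 as reported, was 14 with an offset of 64 and 1 to 11 without 1 array, and in +/-, 10 as reported, it was 5 when only the +/- arrays were fitted and 6 to 9 without 1 array. By gene, using the mean of all probe sets gave 5 in place of 4 in each region comparison, with Dcx lower in BG in both. Dclk2 no longer passed in limma (adjusted p = 0.149 in -/- and 0.0530 in +/-). Dclk1 in -/- and Stmn1 in +/- passed instead, both higher in BG. The replicate block gave 9 region calls in -/- and 11 in +/-, and same-numbered arrays share only a number.

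Over all probe sets, the 3070 calls in BG became 4969 with an offset of 64, 1761 with no filter, 4786 with the lowest 50% left out, 2001 with centring, 2002 with the replicate block, 1024 with only the BG arrays and 113 to 3415 without 1 array. The 71 in Ctx became 41 with an offset of 1, 146 with an offset of 64, 112 with the lowest 50% left out, 36 with the replicate block, 24 with only the Ctx arrays and 19 to 39 without 1 array. The 181 for the difference between regions (163 higher) became 3, 907, 10, 1033 and 53 (36 higher) with an offset of 1, an offset of 64, no filter, the lowest 50% left out and centring, 4 with the replicate block and 3 to 4 without 1 array. The 7518 between regions in +/- became 3466 with only those arrays, and 3898 to 6948 without 1 array. The 5438 in -/- became 1896 to 6592 without 1 array. Of the member results under alternatives, 2190 kept their side of the threshold, 134 lost and 41 gained a call, and no called value changed sign, but 49 of the 123 results not called changed sign under at least 1 setting. The cause of these shifts was not tested. Dim probe sets such as Dclk1 1451917_a_at and Dclk2 1458488_at are limited by signal over background.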
